A study of Mus musculus with 3 samples.

Results

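Acbd3 and 7 genes with roles around phosphatidylinositol 4-phosphate (PI4P), not all of them at the Golgi, were examined in WR19L, a T-lymphoma line from a mouse. The genes were Acbd3, Pi4ka, Pi4kb, Pi4k2a, Pi4k2b, Sacm1l, Osbp and Gbf1, which are 8 of the 18194 genes with a probe set of their own. They were read by every probe set with no other gene symbol, 20 of the 34958 probe sets with 1 symbol, and 0 further probe sets listed a member beside another gene. Cells of 3 kinds, all untreated and all WR19L of BALB/c origin, were measured on Affymetrix arrays, with 1 array per group. The first was DKO, a flippase-deficient derivative of WR19L, with stable expression of the Q84E mutant of ATP11A. The second was DKO with stable expression of human ATP11A without that mutation, called wild-type ATP11A here, and the last was parental WR19L. ATP11A is a flippase, which carries phospholipids across the plasma membrane to its inner leaflet. The labels do not name the flippase genes deleted in DKO, the promoter of the transgene or whether a line is 1 clone. DKO without a transgene was not analysed here, so in a ratio over parental cells the knockout, the transgene and the derivation of the line cannot be told apart.

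PI4P is a phosphorylated membrane lipid that marks the Golgi, where proteins that bind it recruit coats and carry other lipids. In mammalian cells ACBD3 is a Golgi protein with an acyl-CoA-binding domain that is held there by giantin and in turn recruits the kinase PI4KB, which makes PI4P. GBF1 activates the GTPase ARF1, which also helps to bring PI4KB to the Golgi, SAC1 (the product of Sacm1l) dephosphorylates PI4P, and OSBP carries PI4P back to the endoplasmic reticulum in exchange for cholesterol.

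The set was chosen by the signal ratio of Acbd3 over parental cells, and its other genes by their known roles beside it, so the Acbd3 values are a description. With 1 array per group no value has a replicate, and groups could not be tested against each other. The error printed beside a log2 ratio is technical, from how far 2 probe sets of 1 gene differed over all genes, as an SD for 1 probe set at that signal level, and it leaves out differences between cultures. All arrays had the same trimmed mean signal as deposited. Each array measured a whole culture, so fewer cells with a transcript and less of it per cell cannot be told apart. The median signal of an array, used as a floor, was 55.5 in Q84E, 50.5 in wild-type ATP11A and 50.3 in parental cells. Precision is limited by the number of arrays. The 3' over 5' signal ratio of Gapdh, a measure of RNA integrity, was 0.724, 0.720 and 0.721 in the same order. Of 8 T cell markers with a probe set, 7 lay above the 75th percentile of every array, while Cd3e, read by its brightest probe set, lay under the floor on all 3 (signals of 8.88, 13.5 and 6.21). No B cell, macrophage, erythroid, epithelial or fibroblast marker reached the 75th percentile on any array. The summed signal of the 8 T cell markers was 35973 in Q84E, 31653 in wild-type ATP11A and 36524 in parental cells. The mouse gene Atp11a had signals of 244 in Q84E, 253 in wild-type ATP11A and 478 in parental cells, and whether its probes read the human transgene was not tested.

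Acbd3 was several-fold higher in both DKO lines than in parental cells, by each of its 4 probe sets. The brightest had a signal of 3803 in Q84E cells, 3003 in wild-type ATP11A cells and 789 in parental cells. The second had 1621 in Q84E, 1643 in wild-type ATP11A and 456 in parental cells. For the third the signals were 1710, 1453 and 395, and for the dimmest they were 914, 789 and 322, again in Q84E, wild-type ATP11A and parental cells. The parental array was thus the low one for all 4, and the DKO arrays lay close together, with Q84E highest in 3 probe sets and wild-type ATP11A in 1. On its array the brightest probe set stood at percentile 95.0 in Q84E, 93.7 in wild-type ATP11A and 82.8 in parental cells.

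For wild-type ATP11A over parental cells the Acbd3 log2 ratios were 1.93 ± 0.096, 1.85 ± 0.18, 1.88 ± 0.18 and 1.29 ± 0.18 in the same order of probe sets (technical SD). As folds they spanned 2.45 to 3.80. For Q84E over parental cells they were 2.27 ± 0.11, 1.83 ± 0.19, 2.11 ± 0.19 and 1.503 ± 0.19, or 2.84-fold to 4.82-fold. The SD of a probe set was set by its mean signal over the arrays. On the parental array the brightest lay at percentile 82.8, a level where the SD was 0.18 and 0.19 in these comparisons. Shares at least 2-fold higher were taken over probe sets with 1 gene symbol at or above the floor on at least 1 array. They were 0.609% for wild-type ATP11A over parental and 1.67% for Q84E over parental. Both comparisons share the parental array, so 1 deviating parental value would raise both. The mean over the 4 probe sets was 1.74 ± 0.30 for wild-type ATP11A over parental and 1.93 ± 0.34 for Q84E over parental (SD between probe sets, n = 4 probe sets of 1 gene on the same arrays). The third and the dimmest probe set were designed from the same sequence record and still differed in ratio, with the dimmest giving the smallest of the 4.

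Q84E and wild-type ATP11A cells differed little in Acbd3. The log2 ratio of Q84E over wild-type ATP11A was 0.34 ± 0.097 for the brightest probe set and -0.019 ± 0.17, 0.24 ± 0.17 and 0.21 ± 0.17 for the others (technical SD). At least 2-fold higher were 0 of the 4. For probe sets with 1 gene symbol at or above the floor on at least 1 array the share was 1.12%, so a count over 4 says little. The difference exceeded 2 technical SDs for the brightest probe set and lay within 2 SDs for the other 3. That ratio of the brightest probe set became 0.20 when the arrays were given a common median.

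Acbd3 stood high among all genes compared over parental cells. A gene was compared when its brightest probe set reached the median signal of at least 1 array, which held for 11596 genes and for all 8 members. By its brightest probe set Acbd3 ranked 10 from the top for wild-type ATP11A over parental and 7 for Q84E over parental, and 1726 for Q84E over wild-type ATP11A. Of 2490 genes with at least 3 probe sets past that filter, all probe sets were at least 2-fold higher in 1 gene for wild-type ATP11A over parental, which was Acbd3. For Q84E over parental this held for 3 genes, Acbd3, Ndrg1 and P2rx3. That count was chosen after the values were seen and is given as a description.

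**Figure D1:**
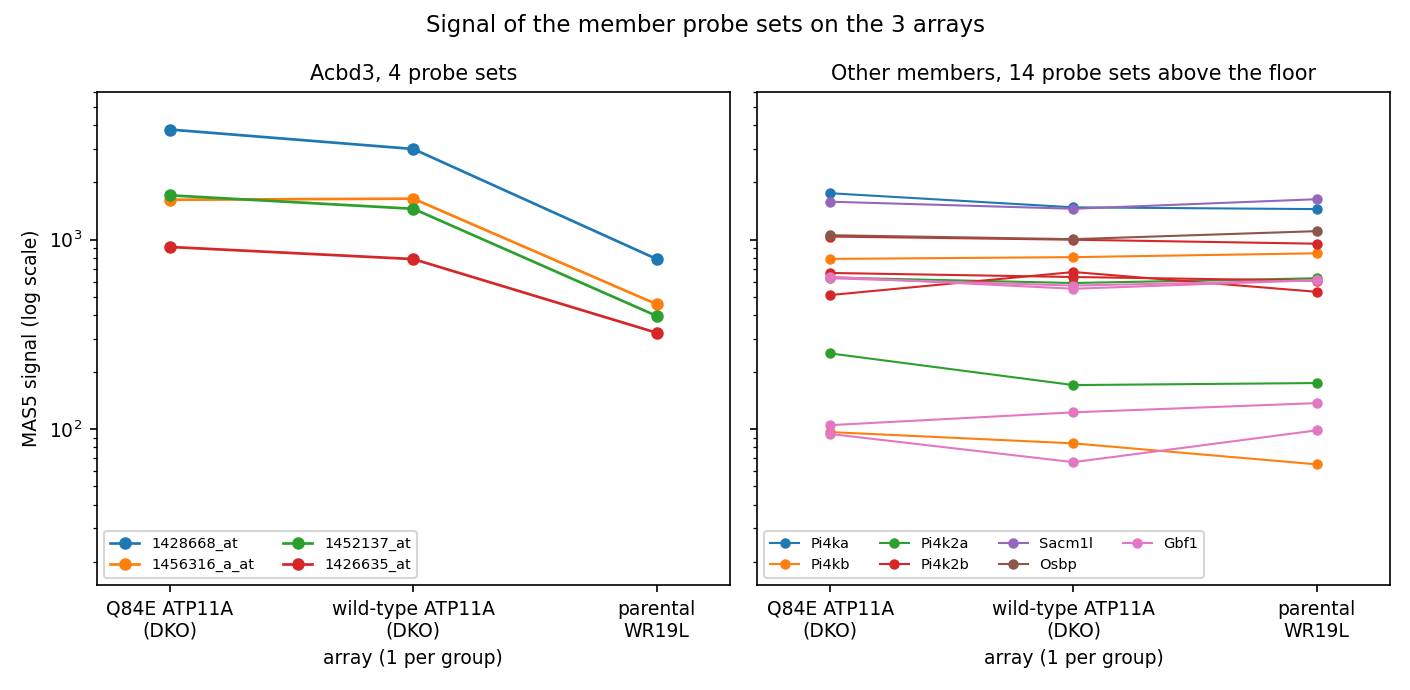
MAS5 signal (log axis) of the 4 Acbd3 probe sets (left) and of the 14 probe sets of the other members that lie above the floor on all arrays (right), with lines joining the 3 arrays of a probe set. All 4 Acbd3 lines drop at the parental array, to between 322 and 789, while the lines on the right run nearly level.

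None of the 4 phosphatidylinositol 4-kinase genes differed 2-fold between any arrays. Such a difference was seen in 1.35% to 2.42% of all genes compared, so a count over 4 genes says little. Pi4kb encodes the kinase that ACBD3 recruits. Its brighter probe set had signals of 790 in Q84E, 807 in wild-type ATP11A and 846 in parental cells, and log2 ratios of -0.031 ± 0.17 for Q84E over wild-type ATP11A, -0.067 ± 0.18 for wild-type ATP11A over parental and -0.098 ± 0.19 for Q84E over parental (technical SD). All 3 ratios lay within 1 technical SD of 0, so where the Acbd3 signal was several-fold higher the Pi4kb signal was level on this probe set. Its dimmer probe set had signals of 96.5, 84.1 and 65.2 in Q84E, wild-type ATP11A and parental cells, and a log2 ratio of 0.57 ± 0.35 for Q84E over parental. The probe sets of Pi4kb therefore pointed in opposite directions, the dimmer within 2 technical SDs of 0.

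Pi4ka encodes the kinase that supplies PI4P at the plasma membrane. It had signals of 1755 in Q84E, 1478 in wild-type ATP11A and 1447 in parental cells. It was the member with the next highest ratio after Acbd3 in both Q84E comparisons, at 0.25 ± 0.17 for Q84E over wild-type ATP11A and 0.28 ± 0.19 for Q84E over parental on the log2 scale, against 0.031 ± 0.18 for wild-type ATP11A over parental (technical SD). Its other probe set lay under the floor on all 3 arrays and measured nothing. Both Q84E ratios were larger than 1 technical SD and smaller than 2.

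Pi4k2a and Pi4k2b encode the type II kinases, which are anchored in trans-Golgi and endosomal membranes. The brighter Pi4k2a probe set had signals of 630, 590 and 625 in Q84E, wild-type ATP11A and parental cells. The dimmer one, designed from the same sequence record, had 251, 171 and 175. Its log2 ratio was 0.55 ± 0.31 for Q84E over wild-type ATP11A and 0.52 ± 0.35 for Q84E over parental, against 0.096 ± 0.17 and 0.013 ± 0.19 for the brighter one (technical SD), so the higher Q84E level rested on the dimmer probe set. For Pi4k2b the brightest of 3 probe sets had 1037 in Q84E, 998 in wild-type ATP11A and 951 in parental cells, and the next had 666, 634 and 607. The least bright had 510, 674 and 530, with a log2 ratio of -0.40 ± 0.17 for Q84E over wild-type ATP11A. That was the only one of the 14 probe sets of the other 7 members measured above the floor that lay more than 2 technical SDs from 0 in any of the 3 comparisons, and the brighter Pi4k2b probe sets had 0.056 and 0.071.

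The phosphatase, the lipid carrier and the ARF activator were nearly level as well. Sacm1l had signals of 1583 in Q84E, 1453 in wild-type ATP11A and 1632 in parental cells, a log2 ratio of 0.12 ± 0.17 for Q84E over wild-type ATP11A and -0.17 ± 0.18 for wild-type ATP11A over parental (technical SD). Osbp had 1054, 1004 and 1107 in Q84E, wild-type ATP11A and parental cells, and its 3 ratios lay between -0.14 and 0.070 on the log2 scale. In both genes the wild-type ATP11A array was the lowest and the parental array the highest, by less than 1 technical SD. Each is read by 1 probe set, so no second reading of the same array was available.

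Gbf1 was read by 5 probe sets. The brightest had signals of 625 in Q84E, 572 in wild-type ATP11A and 609 in parental cells, and the next had 636, 550 and 611. The remaining pair above the floor had 105, 123 and 137, and 94.3, 67.0 and 98.5, in Q84E, wild-type ATP11A and parental cells. The fifth lay under the floor on every array. The brightest Gbf1 probe set had log2 ratios of 0.13 ± 0.17, -0.091 ± 0.18 and 0.036 ± 0.19 for Q84E over wild-type ATP11A, wild-type ATP11A over parental and Q84E over parental (technical SD), all within 1 SD of 0. The dimmest of the 4 above the floor had -0.56 ± 0.35 for wild-type ATP11A over parental, the lowest ratio of any member probe set.

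**Figure D2:**
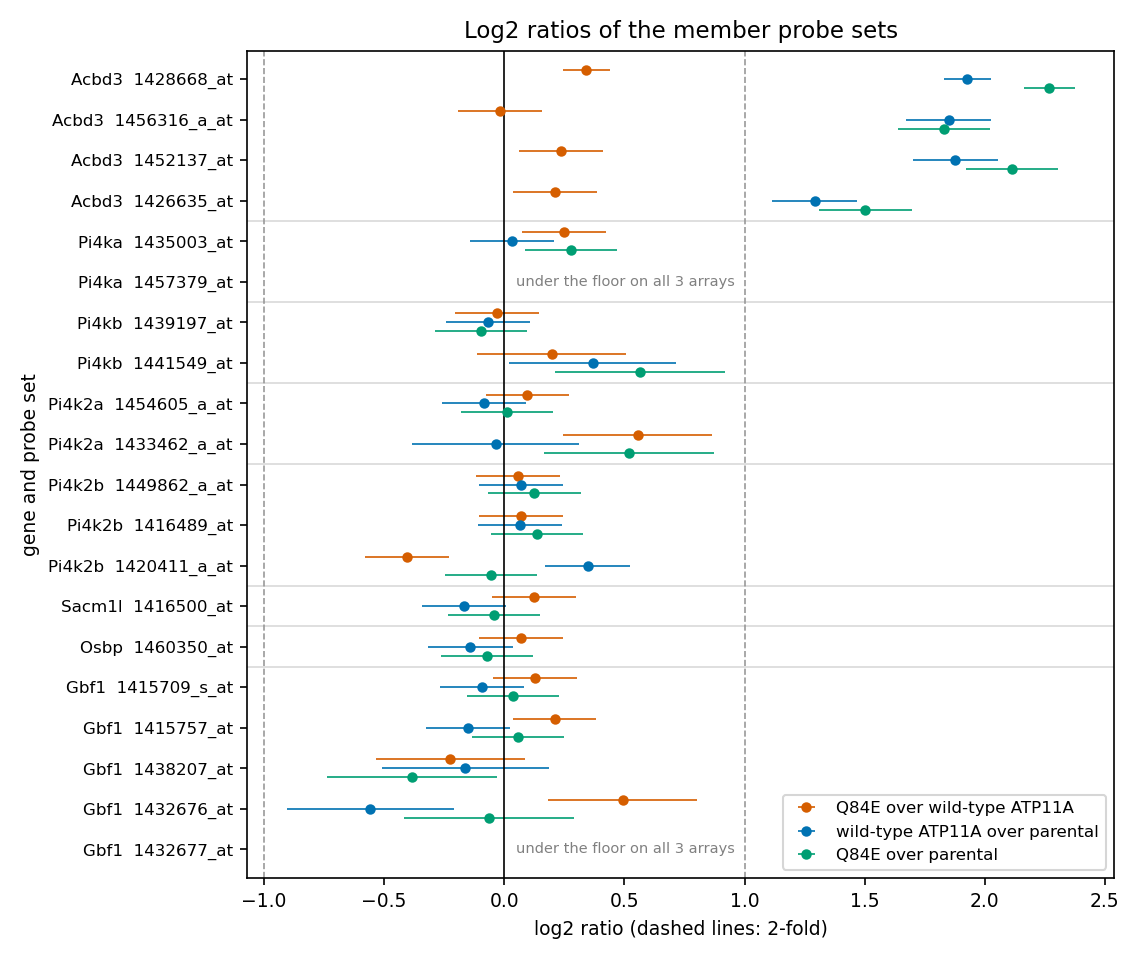
Log2 ratio of each member probe set in the 3 comparisons, with the technical SD of a probe set of that signal as the error bar and dashed lines at 2-fold. All points past a dashed line belong to Acbd3 over parental cells, and the widest bars belong to the dim probe sets of Pi4kb, Pi4k2a and Gbf1.

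By the brightest probe set, 1 of 8 members was at least 2-fold apart for wild-type ATP11A over parental, where 1.45% of all genes compared were at least 2-fold apart. Over the same parental array Q84E also gave 1 of 8, against 2.42% of all genes. For Q84E over wild-type ATP11A it was 0 of 8, against 1.35%. The called member was Acbd3 in both cases, and since the choice of members used that ratio nothing is read from the count. Without Acbd3 the median log2 ratio of the other 7 members was 0.096 for Q84E over wild-type ATP11A, 0.013 for Q84E over parental and -0.083 for wild-type ATP11A over parental. The medians over all genes compared were 0.046, 0.068 and 0.0057 in the same order. At the level of probe sets, the highest over the lowest of the 3 signals was 2.84-fold to 4.82-fold for the 4 of Acbd3 and 1.07-fold to 1.48-fold, with a median of 1.14-fold, for the 14 of the other members above the floor. Between brightest probe sets, Acbd3 lay above the next highest member, Pi4k2b, by 1.86 on the log2 scale for wild-type ATP11A over parental, and above Pi4ka by 1.99 for Q84E over parental. Between all probe sets above the floor, the lowest of Acbd3 had 1.29 and 1.503 in these comparisons and the highest of the others, the dimmer one of Pi4kb, 0.37 and 0.57.

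In the 2 comparisons with Q84E on top, the number of other members above 0 depended on the scaling. For Q84E over wild-type ATP11A 6 of the 7 were above 0 as deposited and with quantile normalization, and 1 of 7 when the arrays were given a common median. That scaling moved the median of all genes compared by -0.14, so that 3846 of the 11596 genes were above 0, against 6733 as deposited. For Q84E over parental the count above 0 was 4 of 7 as deposited, 2 with quantile normalization and 1 with a common median, while over all genes it was 6919, 5839 and 4285. For wild-type ATP11A over parental it was 2 of 7 under all 3 scalings.

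The wider set of genes around Golgi PI4P was described through 7 lists of known proteins, with 107 of 118 genes compared. For Q84E over wild-type ATP11A 0 of the 107 were at least 2-fold higher and 0 lower, where 1.03% of all genes were higher and 0.319% lower. For wild-type ATP11A over parental 0 were higher and 2 lower, against 0.561% and 0.888% of all genes, and for Q84E over parental 1 was higher and 2 lower, against 1.63% and 0.793%. Over all genes the split of 119 higher and 37 lower for Q84E over wild-type ATP11A became 65 and 66 with a common median, and that of 189 and 92 for Q84E over parental became 111 and 123. The median log2 ratios of the 107 genes were 0.044, -0.046 and 0.022 in these comparisons, beside 0.046, 0.0057 and 0.068 for all genes compared. With a common median they were -0.093, -0.051 and -0.12, beside -0.091, 0 and -0.075 for all genes, and with quantile normalization that for Q84E over parental was -0.015, so the signs in the Q84E comparisons turned with the scaling.

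Among 9 compared genes for proteins known to bind ACBD3, none was 2-fold apart in any comparison. Depending on the comparison 1.35% to 2.42% of all genes were, so a count over 9 genes says little. Golgb1 encodes giantin, the Golgi anchor of ACBD3. It had signals of 384 in Q84E, 233 in wild-type ATP11A and 215 in parental cells, a log2 ratio of 0.84 ± 0.35 for Q84E over parental and of 0.12 ± 0.35 for wild-type ATP11A over parental (technical SD), read by the only one of its 3 probe sets above the floor. Ppm1l, a phosphatase gene, had 132, 85.4 and 74.6 in Q84E, wild-type ATP11A and parental cells, and it too was read by 1 of 3 probe sets. Both were named after their values were seen, as the 2 of 9 genes past 1.5-fold in both Q84E comparisons. Of all genes, 7.75% were past it for Q84E over wild-type ATP11A and 10.3% for Q84E over parental. Tspo, the mitochondrial translocator protein, had 2569 in Q84E, 2743 in wild-type ATP11A and 2143 in parental cells, with log2 ratios of 0.36 for wild-type ATP11A over parental and 0.26 for Q84E over parental. Tbc1d22a, a Rab GTPase-activating protein gene, had 706, 609 and 571, Numb had 689, 588 and 609, and the iron transporter gene Slc11a2 had 558, 579 and 677, in Q84E, wild-type ATP11A and parental cells. The median of the list was 0.092 for wild-type ATP11A over parental, beside 0.0057 for all genes. For Q84E over parental it was 0.21 as deposited, beside 0.068 for all genes, 0.15 with quantile normalization and 0.065 with a common median.

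Other genes with an acyl-CoA-binding domain lay near 0 in their ratios over parental cells. All 5 compared ones lay between -0.37 and 0.17 in log2 ratio for wild-type ATP11A over parental and between -0.34 and 0.14 for Q84E over parental. Dbi, the small acyl-CoA-binding protein itself, had signals of 7131 in Q84E, 7619 in wild-type ATP11A and 6796 in parental cells. Acbd5, a peroxisomal tether, had 760, 810 and 732. Acbd6 had 931 in Q84E, 1192 in wild-type ATP11A and 1180 in parental cells, and the peroxisomal isomerase gene Eci2 had 2839, 2504 and 2578.

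Genes for proteins that bind PI4P or transfer lipids gave 20 compared genes, with a median log2 ratio of -0.11 for wild-type ATP11A over parental and -0.089 for Q84E over parental. Osbpl5, an OSBP-related protein gene, was the 1 gene of this list past 2-fold. It was under the floor in Q84E and in wild-type ATP11A cells and had a signal of 112 in parental cells, so that it was at least 2.01-fold and at least 2.21-fold lower in these lines than in parental cells. Past 2-fold in either direction were 1.45% of all genes for wild-type ATP11A over parental and 2.42% for Q84E over parental. Cert1, the ceramide carrier that binds Golgi PI4P, had 2471 in Q84E, 2258 in wild-type ATP11A and 2326 in parental cells. Sgms1, the Golgi sphingomyelin synthase that uses this ceramide and is no member of the list, had 1977 in Q84E, 157 in wild-type ATP11A and 113 in parental cells. The Sgms1 signal was thus high on the Q84E array alone, whereas that of Acbd3 was high on both DKO arrays. Plekha3, a PI4P-binding adaptor, had 1193, 1318 and 1050, Golph3, a PI4P reader that holds Golgi enzymes in place, had 1910, 2335 and 2136, and Osbpl2 had 1074, 812 and 903, in Q84E, wild-type ATP11A and parental cells. Gga1, a clathrin adaptor of the trans-Golgi, had 485, 438 and 388.

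Partners and regulators of the 4-kinases numbered 14 compared genes, 0 of them past 2-fold in any comparison. The share of all genes past it was 1.35% to 2.42% by comparison, so at this list size the count says little. Fam126a, a subunit of the complex that holds PI4KA at the plasma membrane, had signals of 1191 in Q84E, 1370 in wild-type ATP11A and 1724 in parental cells, a log2 ratio of -0.53 ± 0.19 for Q84E over parental (technical SD). Its relative Fam126b had 640, 683 and 531. Prkd3, one of the protein kinase D genes whose products act on PI4KB at the Golgi, had 910, 1293 and 1375, and its log2 ratio was -0.60 ± 0.19 for Q84E over parental, against -0.46 for its other bright probe set. Prkd2 had 2292 in Q84E, 1628 in wild-type ATP11A and 1949 in parental cells, and its 4 measured probe sets ranged from 0.069 to 1.76 for Q84E over parental, the highest by the dimmest of them.

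The ARF1 cycle had 0 of 11 genes past 1.5-fold in any comparison, where 7.75%, 7.07% and 10.3% of all genes were for Q84E over wild-type ATP11A, wild-type ATP11A over parental and Q84E over parental, so at this list size the count says little. The 11 genes, which include Arf1, its exchange factors Arfgef1 and Arfgef2 and the Arfgap genes, lay between -0.26 and 0.11 for wild-type ATP11A over parental and between -0.10 and 0.29 for Q84E over parental on the log2 scale. Arf4 had signals of 4206 in Q84E, 3784 in wild-type ATP11A and 4519 in parental cells, and Rab1b had 1390, 1192 and 1400. Arfgef1 had 2961, 3182 and 2957 in the same order, and Arfgap1 717, 639 and 702.

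Among 17 other phosphoinositide enzymes, Pip5k1b was the 1 gene past 2-fold, for Q84E over parental, where 2.42% of all genes were. This kinase turns PI4P into phosphatidylinositol 4,5-bisphosphate, and its signals were 111 in Q84E, 59.8 in wild-type ATP11A and 50.7 in parental cells, just above the floor in the last. Its log2 ratio was 1.12 ± 0.35 for Q84E over parental (technical SD), and 0 genes of the list were past 2-fold when the arrays were quantile normalized or given a common median. Cdipt, the phosphatidylinositol synthase, had 2625, 2916 and 3228 in Q84E, wild-type ATP11A and parental cells, and Pip4k2b had 865, 754 and 1084. The phosphatase genes Inpp5b and Inpp5k had 1265, 1081 and 1014, and 588, 470 and 500, in the same order. The median of this list was 0.18 for Q84E over wild-type ATP11A and 0.18 for Q84E over parental as deposited, and 0.040 and 0.039 with a common median.

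Of 31 compared Golgi structure genes, 1 was past 2-fold, for each DKO line over parental cells. Of all genes compared, 1.45% were past it for wild-type ATP11A over parental and 2.42% for Q84E over parental. At this list size the count says little. Cog7, a subunit of the COG tethering complex, had signals of 366 in Q84E, 316 in wild-type ATP11A and 798 in parental cells by its 1 probe set, with log2 ratios of -1.33 ± 0.18 for wild-type ATP11A over parental and -1.12 ± 0.19 for Q84E over parental (technical SD). The other compared COG genes lay between -0.27 and 0.39 for wild-type ATP11A over parental and between -0.33 and 0.52 for Q84E over parental. The highest of them, Cog8, has 3 probe sets, which ranged from -0.058 to 0.39 for wild-type ATP11A over parental. Cog8 had 917, 838 and 639 in Q84E, wild-type ATP11A and parental cells, the golgin gene Golga5 had 1999, 1614 and 1452, and Golga3 had 905, 705 and 715. The median of the list was -0.060 for wild-type ATP11A over parental and -0.023 for Q84E over parental.

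**Figure D3:**
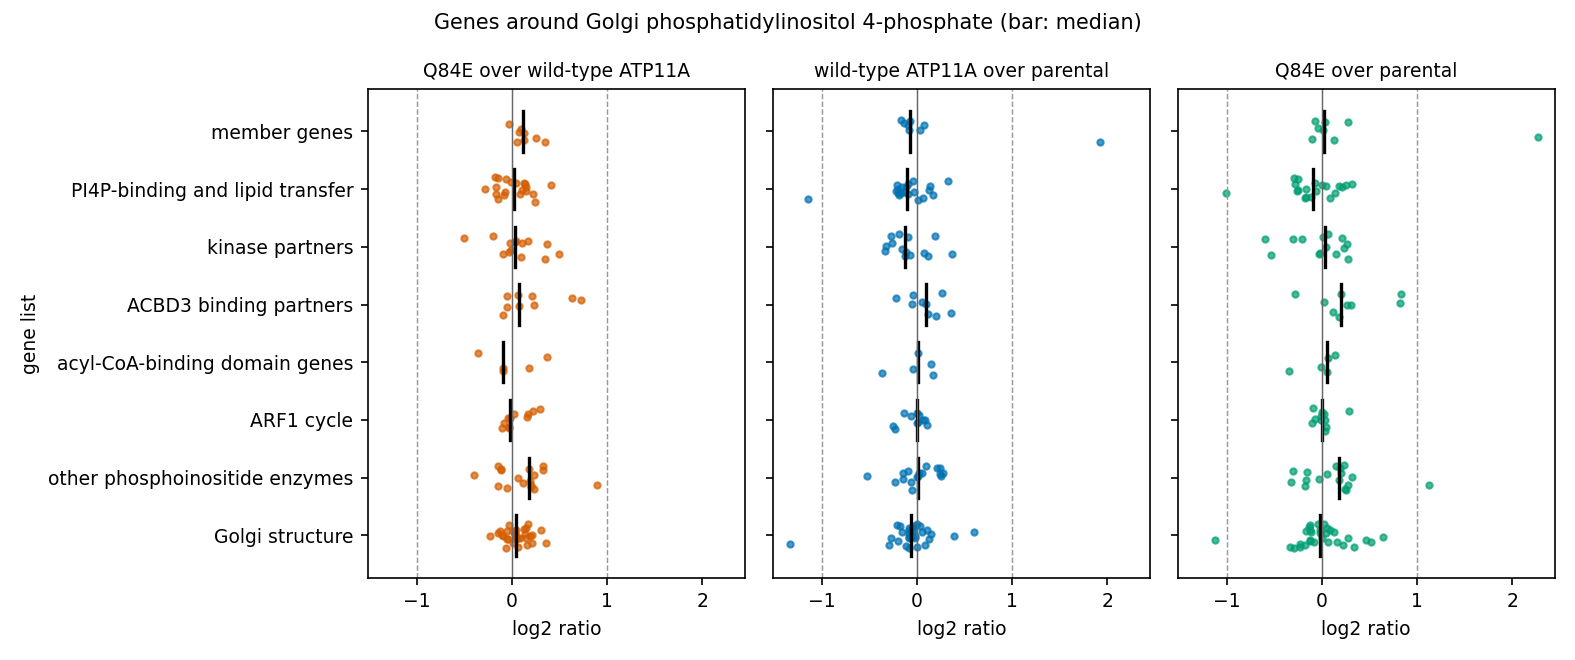
Log2 ratio of each compared gene in the members and in 7 lists around Golgi PI4P, for the 3 comparisons, with a bar at the median of each list and dashed lines at 2-fold. Acbd3 is the lone member point right of a dashed line, while Osbpl5 and Cog7 lie left of one over parental cells, Osbpl5 as a bound.

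The genes whose pattern over the 3 arrays was most like that of Acbd3 were taken by the smallest Euclidean distance between their pair of log2 ratios over parental cells and that of Acbd3. The 6888 candidates were above the floor on all arrays and reached the 75th percentile on at least 1. Fermt3, the gene of kindlin-3, which activates integrins on blood cells, was nearest, at a distance of 0.16 on the log2 scale, with signals of 4596 in Q84E, 3310 in wild-type ATP11A and 969 in parental cells. Ccdc112 followed at 0.44, with 646, 772 and 175, and Shisa5 at 0.59, with 1665, 1402 and 476. Dusp4, a phosphatase of MAP kinases, stood at 0.69, with 2524 in Q84E, 1248 in wild-type ATP11A and 325 in parental cells, and Ccdc18 at 0.99, with 612, 483 and 206. In all 5 the parental array was the lowest, an order that the choice by distance to Acbd3 favours, so nothing is read from it. Q84E was the highest in 4 of them, and wild-type ATP11A in Ccdc112. Support from further probe sets differed: 3 of 4 of Fermt3 and both of Shisa5 were past 2-fold for wild-type ATP11A over parental, while Ccdc112 and Dusp4 have 1 each. For Ccdc18 1 of 3 was past it, and the other 2 lay at or near the floor, where such a ratio could not be seen.

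**Figure D4:**
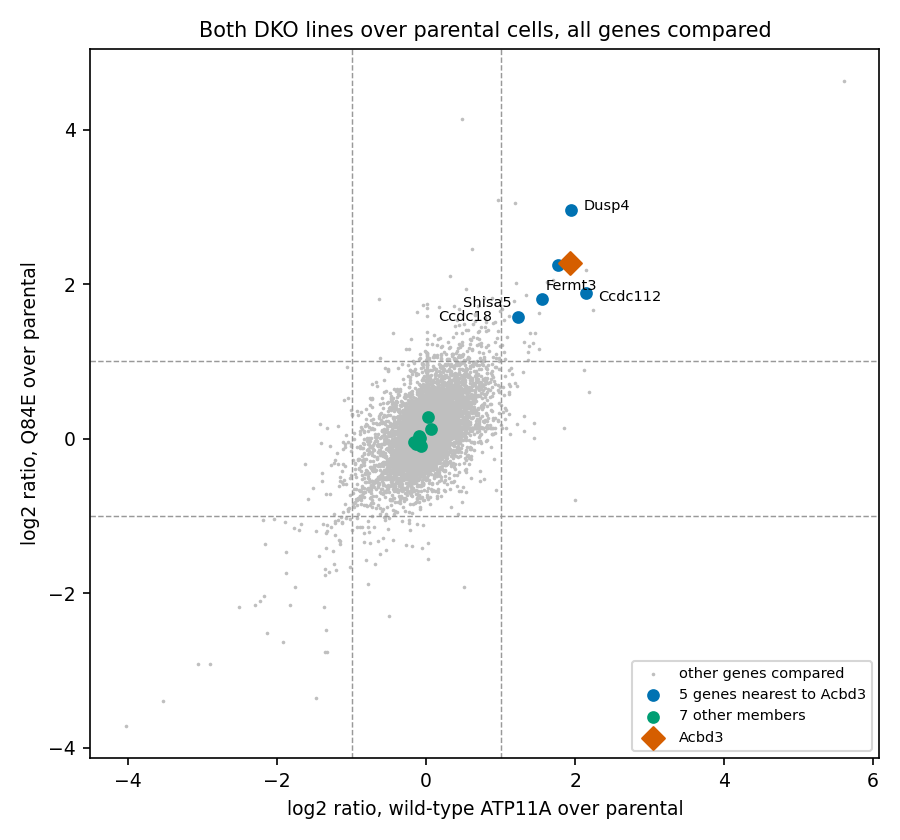
Log2 ratio of Q84E over parental against that of wild-type ATP11A over parental for the genes compared, where dashed lines mark 2-fold and both axes share the parental array. Acbd3 lies at 1.93 and 2.27 among its 5 nearest genes, and the 7 other members lie near 0.

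Acbd3 lies on chromosome 1 of the mouse in RefSeq. Of the 10 nearest compared genes on each side, 0 of 20 were measured as at least 2-fold higher and 0 as lower in either DKO line than in parental cells, where 0.561% and 0.888% of all genes were for wild-type ATP11A and 1.63% and 0.793% for Q84E. For Lefty1 neither DKO line reached the floor, so its log2 ratios of -0.69 for wild-type ATP11A over parental and -0.55 for Q84E over parental are bounds, and a 2-fold lower level could not be seen. Enah was under the floor in wild-type ATP11A and parental cells, so that pair gave no measure. Its 0.44 for Q84E over parental is a bound, and a 2-fold higher level could not be seen. With these values included, the median log2 ratio of the 20 was 0.051 for wild-type ATP11A over parental and 0.088 for Q84E over parental. For these 20 genes the highest ratio was 0.70 for wild-type ATP11A over parental and 0.87 for Q84E over parental, where Acbd3 had 1.93 and 2.27.

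The nearest compared gene on 1 side was Lin9, a subunit of the DREAM and MuvB cell cycle complexes, and it was higher in both DKO lines by both of its probe sets. The brighter had signals of 1022 in Q84E, 1076 in wild-type ATP11A and 661 in parental cells, a log2 ratio of 0.70 ± 0.18 for wild-type ATP11A over parental and 0.63 ± 0.19 for Q84E over parental (technical SD). The dimmer had 404, 361 and 229, with 0.66 ± 0.35 and 0.82 ± 0.35. These ratios correspond to 1.55-fold to 1.76-fold, a level that 7.07% of all genes compared were past at 1.5-fold in either direction for wild-type ATP11A over parental and 10.3% for Q84E over parental. Mixl1, a developmental homeobox gene between Lin9 and Acbd3, lay under the floor on all 3 arrays.

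Among the 20 neighbours 3 were past 1.5-fold for Q84E over wild-type ATP11A, where 7.75% of all genes were. These were Itpkb, Tmem63a and Coq8a, each highest in Q84E. Enah had a bound of 0.44 on the log2 scale in this comparison, so whether it was past 1.5-fold could not be seen. For wild-type ATP11A over parental 2 of the 20 were past it, Lin9 higher and Lefty1 lower as a bound, against 7.07% of all genes. For Q84E over parental 3 were, all higher (Itpkb, Lin9 and H3f3a), against 10.3% of all genes. Enah and Lefty1 were bounds in that comparison. Parp1, the poly(ADP-ribose) polymerase gene beyond Lin9, had 4805 in Q84E, 5264 in wild-type ATP11A and 5155 in parental cells. On the other side of Acbd3 the nearest compared gene H3f3a, a histone H3.3 gene, had 224, 162 and 146 by its 1 uniquely named probe set, and Sde2 had 1771, 1739 and 1909. The H3f3a log2 ratio was 0.62 ± 0.35 for Q84E over parental and 0.15 ± 0.35 for wild-type ATP11A over parental (technical SD). The 4 probe sets of Sde2 above the floor on all arrays disagreed, from -0.65 to 0.12 in log2 ratio for wild-type ATP11A over parental. Itpkb, an inositol trisphosphate kinase gene of lymphocytes, had 401 in Q84E, 256 in wild-type ATP11A and 219 in parental cells, and Tmem63a had 182, 117 and 145. Coq8a, a gene of coenzyme Q synthesis, had 149, 74.3 and 103, a 2.005-fold higher level in Q84E than in wild-type ATP11A cells. That is a log2 ratio of 1.003 ± 0.31 (technical SD), and 1.03% of all genes were at least 2-fold higher. The other Coq8a probe set lay under the floor on all 3 arrays. A common median moved the median of all genes in this comparison by -0.14, so the 2-fold crossing depended on the scaling. Lefty1 had 36.8 and 40.0, both under the floor, in Q84E and wild-type ATP11A, and 81.6 in parental cells.

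**Figure D5:**
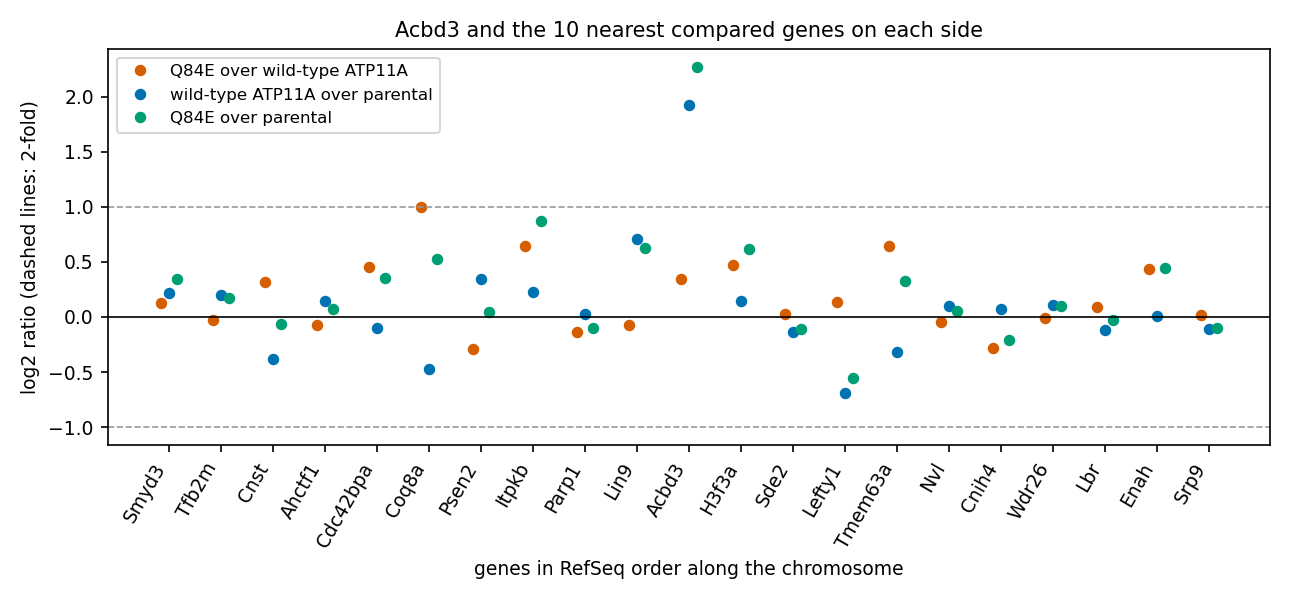
Log2 ratio of Acbd3 and of the 10 nearest compared genes on each side, in RefSeq order, for the 3 comparisons, with dashed lines at 2-fold. Acbd3 stands at 1.93 and 2.27 over parental cells, Lin9 beside it at 0.70 and 0.63, and the other neighbours lie on both sides of 0.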

How the data were processed

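Total RNA (250 ng per sample, per the labels' protocols) from 3 samples was measured on 3 arrays. The authors deposited 1 linear intensity per probe set, from MAS5 as the submitters' processing notes state. Detection calls were not used here. The trimmed mean, leaving out 2% at each end, was equal on all arrays. Groups came from the genotype label, and from the title for Q84E. Gene names came from the platform's annotation table, and all 8 symbols matched RefSeq genes of assembly GRCm38.p6, used for names, chromosome and gene order. No build is named for the arrays, so no coordinates are printed, and no sequence is shown.

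Log2 levels were taken with signals under the array's 50th percentile set to it, and each gene was represented by its brightest probe set. A ratio with 1 level under the floor is a bound. The technical SD came from pairs of probe sets of 1 gene within 2-fold of each other in level, above the floor on all arrays, divided by the square root of 2. It used 621 genes between the 50th and 75th percentile, 1022 between the 75th and 90th and 751 above. The 2-fold call and the technical SD were tested on simulated data, with the same noise at every signal level and changes added to bright genes only. The other steps were not tested in this way. The named genes were all members, list genes past 2-fold plus up to 4 per list with the largest ratio among bright genes, neighbours past 1.5-fold or among the 2 nearest on a side, and the 5 genes nearest to Acbd3. The members and lists were chosen with earlier results of these data known. Alternatives in scaling, floor, probe set and fold limit were tried. Python 3.11.15, numpy 2.4.6 and pandas 2.3.3 were used.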

Additional observations from a re-analysis of the deposited data

How the results depend on the processing

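Under quantile normalization, a common median, no floor (log2 of the signal plus 16), a floor and filter at the 25th or 75th percentile, the mean of all probe sets, the more specific probe sets only and a 1.5-fold limit, the count of members past the limit stayed at 0 for Q84E over wild-type ATP11A and at 1 for each DKO line over parental. The Acbd3 log2 ratio ranged from 0.19 to 0.37, from 1.74 to 1.93 and from 1.93 to 2.28 for Q84E over wild-type ATP11A, wild-type ATP11A over parental and Q84E over parental. The other 7 members lay between -0.24 and 0.33 over 144 values. Of 165 member values, 9 moved by more than the technical SD, under a common median or the mean of all probe sets, and 0 called values changed sign. Pi4k2a had 0 probe sets left without the less specific ones, so it has no value there. Over all genes the split for Q84E over wild-type ATP11A, 119 higher and 37 lower as deposited, became 68 and 64 with quantile normalization and 65 and 66 with a common median. The same 2 scalings turned 189 and 92 for Q84E over parental into 119 and 118, and 111 and 123. For Q84E over wild-type ATP11A, wild-type ATP11A over parental (65 and 103 as deposited) and Q84E over parental, the counts higher and lower were 309 and 212, 246 and 279, and 374 and 267 without a floor. They were 1023 and 754, 825 and 887, and 1121 and 853 with the floor at the 25th percentile, and 15 and 3, 11 and 18, and 35 and 26 at the 75th. The mean of all probe sets gave 68 and 23, 38 and 65, and 121 and 58, and a 1.5-fold limit 670 and 229, 407 and 413, and 853 and 341. No paired analysis was possible because each group has 1 array. A single array per group leaves differences between cultures unmeasured, and dim probe sets have a technical SD of 0.31 to 0.35.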
